A study of Mus musculus with 14 samples.

Results

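The effect of losing Cbfb was measured in the blood of mouse embryos by setting 3 arrays titled Cbfb-/- against 3 arrays titled Cbfb+/+. These are 6 of the 14 arrays of the series, and they were chosen by their titles alone. Both groups came from matings between Cbfb+/- parents, so the Cbfb+/+ embryos are littermates of the Cbfb-/- embryos. Blood of 8 to 10 embryos of 1 genotype was pooled at E12.5, and total RNA was hybridised to Affymetrix mouse arrays. Array titles use the words technical replicate, and nothing in them tells whether a genotype had more than 1 pool. The p-values below therefore rest on the spread between arrays of a group, which in this cross may be purely technical. The other 8 arrays come from a cross of Cbfb+/MYH11 with C57/Bl6 animals, with 4 arrays of Cbfb+/MYH11 embryos, which carry a fusion of Cbfb with a smooth muscle myosin gene on 1 allele, and 4 of their WT littermates. They share the estimate of the spread, so the p-values also hold differences between arrays of that cross. The 4 WT arrays give a second set of wild-type blood beside the 3 Cbfb+/+ arrays.

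Cbfb is the partner of the Runx transcription factors. It does not bind DNA itself, but holds Runx proteins on their sites, and with Runx1 it is needed for the definitive blood lineages of the fetal liver. Embryos without it die around midgestation with haemorrhage, at a stage when the circulation still carries mainly the primitive red cells of the yolk sac, along with small numbers of macrophages and platelet-forming cells. The study's title asks which effects of the Cbfb-MYH11 fusion are independent of Cbfb and Runx1 repression, and the Cbfb-/- embryos are the comparison that shows what absence of Cbfb goes with.

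The SD of the log2 differences between any 2 arrays of the same genotype lay between 0.20 and 0.22 across genes, against 0.66 to 0.69 between a Cbfb-/- and a Cbfb+/+ array. In the other cross it ranged from 0.11 to 0.71 within a genotype. WT arrays 3 and 4 differed by 0.12 from each other, but by 0.66 to 0.71 from WT arrays 1 and 2, about as far as the 2 genotypes compared here. That spread enters the shared estimate behind the p-values. The number of arrays limits the precision. As a check of the labelled tissue, the embryonic globins were at the top of the scale. Hbb-y, the epsilon-like globin of primitive red cells, had log2 levels of 14.55, 14.53 and 14.55 in Cbfb-/- and 14.49, 14.52 and 14.53 in Cbfb+/+. The highest value on any array was 14.55, so these probe sets may be saturated, and their differences (0.03 to 0.08 for Hbb-y, Hbb-bh1 and Hba-x, none called) say little about globin RNA.

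The targeted gene was read by 1 probe set. Cbfb had log2 levels of 7.03, 6.80 and 6.98 in Cbfb-/- and 6.52, 6.56 and 6.27 in Cbfb+/+, a difference of 0.48 (95% interval -0.63 to 1.60, adjusted p = 0.453) that was not called. WT arrays of the other cross had 6.62, 6.57, 8.31 and 8.14. The sources used here do not place it inside or outside the deletion, and its level therefore does not check the genotype label. Xist, the RNA of the inactive X chromosome, depends on the number of female embryos in a pool. It had log2 levels of 7.53, 7.35 and 7.31 in Cbfb-/- and 8.35, 8.32 and 8.29 in Cbfb+/+, without overlap, but the difference of -0.92 was not called (adjusted p = 0.113). It was called with quantile normalization (-1.12, adjusted p = 0.0398), and also with centred arrays, the mean of probe sets, the replicate block and the 6 arrays alone. The part of the sexes of the embryos in other differences was not tested.

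A gene was called where limma gave a Benjamini-Hochberg adjusted p under 0.05 and the change reached 1.5-fold, which 1935 of 7392 tested genes did (26.2%). In Cbfb-/- blood 1443 genes (19.5%) were called higher and 492 (6.66%) lower. These shares are the background for each list count below. A gene was tested when its log2 level reached 6 on at least 3 of the 14 arrays. Levels under 6 may be background, so a difference to or from such a level is a lower bound in size. That holds for 715 of the called genes, and 149 of those called higher passed the filter through the Cbfb-/- arrays alone. Through 1 group alone means, here and below, that fewer than 3 arrays of the other groups reached 6. Some arrays of those groups could still do so. The split between directions depended on scaling. The median log2 difference of all tested genes was 0.13, and with quantile normalization it was -0.05, with 991 genes called higher and 917 lower. Centring the arrays gave 976 and 989. Some list medians are therefore also given relative to the median of 0.13. All other differences in the text are not adjusted for it.

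Both wild-type sets were used to see how far a gene lay from normal blood. The 3 Cbfb-/- arrays were above all 7 wild-type arrays for 2025 of the 7392 genes (27.4%) and below all 7 for 1026 (13.9%). Of the genes called higher, 1045 (72.4%) were above all 7, and of those called lower, 394 (80.1%) were below all 7. The remaining called genes overlapped at least 1 wild-type array, and 3 of them a Cbfb+/+ array. Among the called genes named below, this holds for Actc1, Aplnr, Apoa1, Bmi1, Cdc25a, Cpe, Ctss, Cubn, Dpysl3, Flvcr1, Gata2, Gfi1b, Hdac2, Jun, Lyz2, Slc25a38 and Srgn, all of which overlapped WT arrays of the other cross.

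Malat1, an abundant nuclear RNA that does not code for protein, was picked out after its values were seen, as a possible sign of RNA quality or nuclear content. It was at log2 levels of 6.99, 6.35 and 6.70 in Cbfb-/- against 8.51, 8.52 and 8.37 in Cbfb+/+ (fell by 1.79, adjusted p = 0.0002), and at 10.04 to 10.67 on the WT arrays. Its 6 tested probe sets gave differences of -2.69 to -0.63. The part of RNA quality or nuclear content in the other differences was not tested.

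**Figure D1:**
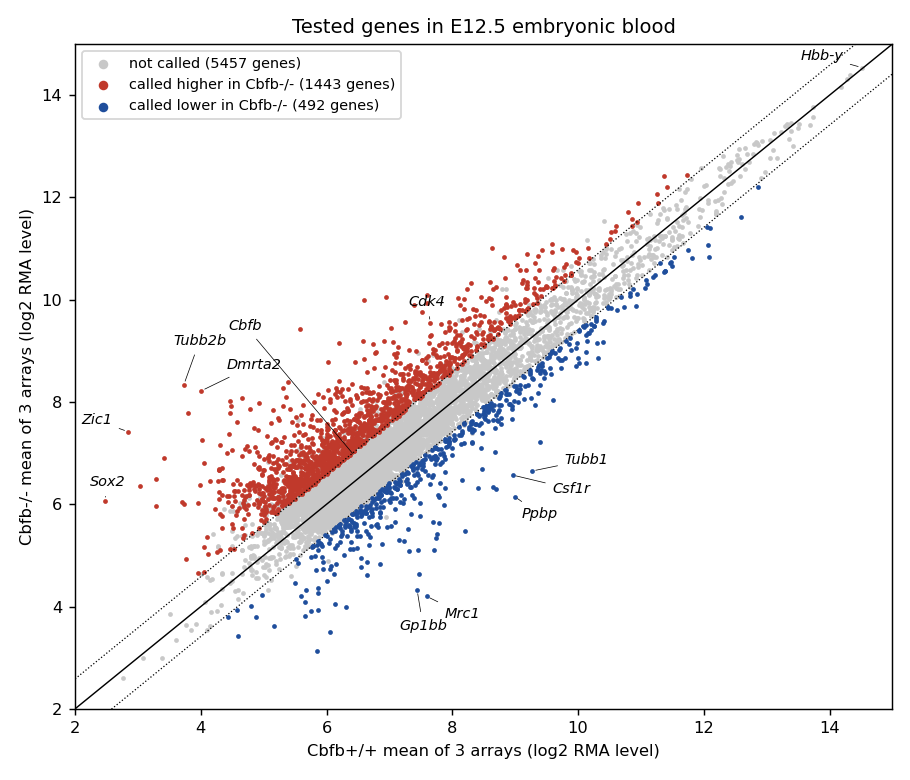
Mean log2 level of each tested gene in the 3 Cbfb+/+ arrays (horizontal) against the 3 Cbfb-/- arrays (vertical); the solid line marks equality and the dotted lines 1.5-fold. The 1443 genes called higher outnumber the 492 called lower, the steepest rises mostly start from Cbfb+/+ levels under 6, and Cbfb itself lies among the genes that were not called.

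Platelet and macrophage genes made up many of the largest falls. Of 49 listed megakaryocyte and platelet genes, 44 had a probe set and 29 were tested. In Cbfb-/- blood 19 of the 29 fell and 0 rose (65.5%, against 6.66% of all tested genes), with a median log2 difference of -1.41, or -1.54 relative to that of all genes. Without the Cbfb+/+ arrays 6 of the 29 would have failed the filter, Gp1bb among them. The count without these 6 was 13 of 23, and over all 44 measured genes the median was -0.73. The count was 22 with quantile normalization, and 17 to 19 when single arrays were left out. In bulk blood, fewer cells of a type and less RNA per cell cannot be told apart, here and in all results below.

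Among platelet surface receptors, Gp1bb is a subunit of the receptor for von Willebrand factor. Its log2 levels were 4.32, 4.26 and 4.36 in Cbfb-/- against 7.43, 7.52 and 7.37 in Cbfb+/+, a fall of 8.73-fold (95% interval 4.21 to 18.1, adjusted p = 0.000656). It was at 7.27, 7.62, 5.51 and 5.43 on the WT arrays, so wild-type blood itself varied by about 2 log2 units, yet no wild-type array came down to the Cbfb-/- level. The integrin chain gene Itga2b, the alpha chain of the fibrinogen receptor and an early marker of the lineage, had 7.24, 7.05 and 6.78 in Cbfb-/- against 8.68, 8.74 and 8.63 in Cbfb+/+. The receptor for podoplanin, Clec1b, fell from a log2 level of 7.76 ± 0.17 to 5.42 ± 0.09 (SD, n = 3, adjusted p = 0.0022).

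Granule and cytoskeletal genes of platelets fell as well. The chemokine precursor Ppbp was at log2 levels of 6.34, 6.09 and 6.01 in Cbfb-/- and 8.97, 9.02 and 8.97 in Cbfb+/+, a fall of 7.15-fold (95% interval 3.25 to 15.7, adjusted p = 0.00176). WT arrays 3 and 4 of the other cross, at 7.11 and 6.99, lay nearer to Cbfb-/- than arrays 1 and 2, at 9.26 and 9.37. Tubb1, the tubulin of the platelet marginal band, was at 6.63, 6.59 and 6.74 against 9.29, 9.27 and 9.27, and its WT levels of 9.32 to 10.33 did not come near the Cbfb-/- arrays. F13a1, a clotting factor subunit of platelets and macrophages, fell by 2.73 on the log2 scale (adjusted p = 0.00863). Fermt3, which activates integrins in blood cells, fell by 2.10 (adjusted p = 0.000414), and the myosin light chain gene Myl9 by 1.12. The calcium sensor gene Stim1 (difference -0.11) and the small GTPase gene Rap1b (-0.39) were not called, and both are expressed far beyond platelets.

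Macrophage genes were lower too. Of 49 genes, 46 had a probe set and 26 were tested, and 24 of the 26 fell (92.3%) while 0 rose. The median log2 difference was -1.51, or -1.64 relative to all genes, and -1.02 over all 46 measured genes. Through the Cbfb+/+ arrays alone 8 of the 26 passed the filter, C1qc and Tyrobp among them, and without them 16 of 18 fell. The count was 24 with quantile normalization and 20 to 23 without single arrays. Of the 26, 12 were below all 7 wild-type arrays, against 13.9% of all tested genes. The median log2 level of the 46 measured genes was 4.83 to 5.09 on the Cbfb-/- arrays and 6.24 to 6.32 on the Cbfb+/+ arrays. On the WT arrays it was 6.23 and 6.37 in arrays 1 and 2, but 5.34 and 5.33 in arrays 3 and 4.

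Mrc1, the macrophage mannose receptor, had the largest fall of any tested gene. Its log2 levels were 4.33, 4.10 and 4.19 in Cbfb-/- against 7.53, 7.70 and 7.54 in Cbfb+/+ (10.5-fold, 95% interval 3.54 to 30.9, adjusted p = 0.00375), and the lowest WT array was at 6.17. The complement chain gene C1qc was at 4.85, 4.42 and 4.65 against 7.67, 7.58 and 7.14, while its lowest WT array, at 5.47, came within 1 log2 unit of Cbfb-/-. Csf1r, the receptor for the macrophage growth factor, had 6.40, 6.57 and 6.74 against 8.97, 8.95 and 8.96 and lay below every wild-type array, the lowest of which was 7.53. The signalling adaptor Tyrobp fell by 2.35 (adjusted p = 0.00206) and its relative Fcer1g by 2.03 (adjusted p = 0.00162). The lysosomal protease Ctss fell by 2.30, from 8.64 ± 0.15 to 6.34 ± 0.16 (SD, n = 3), but WT arrays 3 and 4 had 6.32 and 6.41, so it overlapped wild-type blood. Fcgr2b (-0.19) and Ncf4 (-0.23) were the 2 tested members that were not called.

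Because Runx1 and Cbfb act at promoters and enhancers, the promoter windows of these genes were read for the core letters of the Runx site. The windows are from RefSeq (GRCm38.p6) and run from 250 bases before to 50 after a gene's start. Of the 43 platelet and macrophage genes that fell, 34 had a window, and 6 held TGTGGT or its reverse ACCACA. The 5 shown are those with the largest falls, the letters in capitals, each read 5′ to 3′ along the gene's strand: C1qc (chr4:136892865-136893164, minus strand), Fermt3 (chr19:7019420-7019719, minus), Fcer1g (chr1:171234300-171234599, minus), Lyz2 (chr10:117282223-117282522, minus) and Gp9 (chr6:87777820-87778119, plus).
C1qc: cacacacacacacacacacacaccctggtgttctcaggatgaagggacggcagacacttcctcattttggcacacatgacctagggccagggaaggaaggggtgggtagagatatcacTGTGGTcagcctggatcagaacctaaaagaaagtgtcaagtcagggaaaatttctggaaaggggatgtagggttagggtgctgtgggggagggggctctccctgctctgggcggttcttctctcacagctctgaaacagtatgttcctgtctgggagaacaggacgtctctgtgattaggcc
Fermt3: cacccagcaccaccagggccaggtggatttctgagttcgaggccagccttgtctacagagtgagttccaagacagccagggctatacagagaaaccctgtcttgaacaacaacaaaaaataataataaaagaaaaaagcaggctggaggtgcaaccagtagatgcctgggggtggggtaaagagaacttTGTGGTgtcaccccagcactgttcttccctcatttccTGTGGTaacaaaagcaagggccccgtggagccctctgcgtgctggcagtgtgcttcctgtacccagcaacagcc
Fcer1g: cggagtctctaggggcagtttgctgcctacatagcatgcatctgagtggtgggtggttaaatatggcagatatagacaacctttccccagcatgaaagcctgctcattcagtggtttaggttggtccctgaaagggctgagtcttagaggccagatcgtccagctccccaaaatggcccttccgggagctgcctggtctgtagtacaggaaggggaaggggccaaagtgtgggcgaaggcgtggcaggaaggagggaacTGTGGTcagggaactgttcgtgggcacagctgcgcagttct
Lyz2: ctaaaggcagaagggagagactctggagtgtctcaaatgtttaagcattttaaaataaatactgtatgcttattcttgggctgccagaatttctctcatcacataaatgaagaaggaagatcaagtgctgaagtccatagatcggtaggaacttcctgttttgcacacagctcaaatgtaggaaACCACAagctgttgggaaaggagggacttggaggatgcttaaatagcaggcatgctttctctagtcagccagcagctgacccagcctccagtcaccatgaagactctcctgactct
Gp9: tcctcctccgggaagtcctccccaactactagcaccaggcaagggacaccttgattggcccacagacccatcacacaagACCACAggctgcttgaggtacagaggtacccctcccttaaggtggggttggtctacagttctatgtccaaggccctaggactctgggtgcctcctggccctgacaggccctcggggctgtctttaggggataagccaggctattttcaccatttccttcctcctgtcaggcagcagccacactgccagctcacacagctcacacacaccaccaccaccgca
Fermt3 held the letters at 2 places, starting at positions -61 and -24 from the gene's start, and the others at 1 place each. Lyz2, lysozyme of macrophages, fell by 1.68 (adjusted p = 0.00551) and Gp9, another subunit of the von Willebrand factor receptor, by 1.66 (adjusted p = 0.007).

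For comparison, windows with TGTGGT on either strand made up 15.8% of those of the called platelet genes (3 of 19) and 14.3% of those of the called macrophage genes (3 of 21). The share was 12.2% over windows of all tested genes, 13.5% for genes called lower, 10.7% for genes called higher and 16.8% over the whole table. It was 23.5% (8 of 34) for the called genes of DNA replication, which rose. The GATA letters AGATAA were in 21.1% of the windows of called platelet genes (4 of 19), against 6.22% for all tested genes. The KLF letters CCACCC were in 52.6% and 37.2%, and the SOX letters AACAAT in 10.5% and 5.71%. These are descriptions of 6 letters in short windows, with few windows per list, and were not tested. Enhancers were not analysed here.

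Other white cell lineages were scarcely detected. Of 17 granulocyte genes with a probe set, 2 were tested and both fell. Mpo, the peroxidase of granules, was at log2 levels of 5.49, 5.89 and 5.54 in Cbfb-/- and 7.92, 7.88 and 7.58 in Cbfb+/+, with WT arrays between 6.77 and 6.91. That fall of 4.44-fold had an adjusted p of 1.23e-06. Cebpa, a transcription factor of the myeloid lineage, fell by 0.74 (adjusted p = 0.0186), a call that ended without Cbfb-/- array 1 or 3 or Cbfb+/+ array 2 (adjusted p up to 0.0622). Of 21 lymphoid genes 3 were tested and 0 called. Of 8 tested mast cell and basophil genes 4 fell. These were the monoamine transporter Slc18a2 (by 1.85), the granule proteoglycan Srgn (by 1.09), the protease Cpa3 (by 0.78) and Gata2 (by 0.78). Cpa3 (4.01 against 4.79) and Slc18a2 (3.81 against 5.66) had mean log2 levels under 6 in both groups and were tested because of the Cbfb+/MYH11 arrays, so the size of their difference cannot be read. The Gata2 call ended without Cbfb-/- array 1 (-0.44, adjusted p = 0.104) and without Cbfb+/+ array 1 or 2 (adjusted p up to 0.0691).

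**Figure D2:**
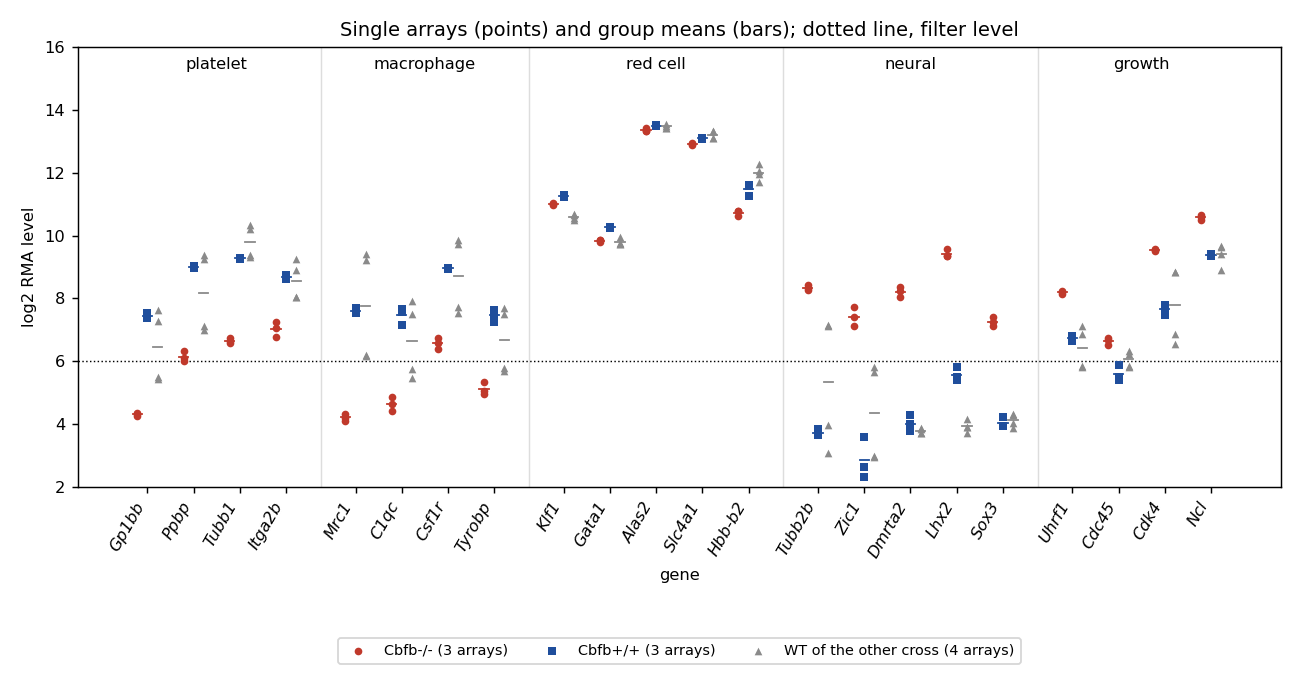
Log2 levels on single arrays of Cbfb-/- (circles), Cbfb+/+ (squares) and WT of the other cross (triangles) for genes of 5 roles, with bars at the group means. Platelet and macrophage genes are lower in Cbfb-/-, Klf1, Gata1, Alas2 and Slc4a1 are close to the controls, and Tubb2b and Zic1 are also raised on 2 of the 4 WT arrays while Dmrta2, Lhx2 and Sox3 are not.

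Stem and progenitor genes went in both directions. Of 15 tested, 5 fell and 2 rose, or 8 and 2 with quantile normalization, and 1 rose without any single array but Cbfb+/+ array 2. Myb, a factor that definitive but not primitive blood cells require, was at log2 levels of 4.51, 3.94 and 3.83 in Cbfb-/- against 5.60, 5.84 and 5.54 in Cbfb+/+ and fell by 2.96-fold (95% interval 2.30 to 3.80, adjusted p = 8.49e-05). All of these levels were under 6, and the gene was tested because of the Cbfb+/MYH11 arrays. Lmo2 (fell by 0.71) and Tal1 (fell by 0.80), which form a complex at erythroid and stem cell genes, were called too. Runx1 itself was not, at log2 levels of 5.82, 5.91 and 5.83 against 6.02, 6.17 and 6.32 (difference -0.32, 95% interval -0.72 to 0.08, adjusted p = 0.174), although the groups did not overlap. Prom1, a surface protein of stem cells and of neural epithelium, rose by 2.38 (adjusted p = 0.00309), having passed the filter through Cbfb-/- alone. Bmi1, a Polycomb protein, rose by 1.85 (adjusted p = 0.024), but that call was lost when any single array other than Cbfb+/+ array 2 was left out (adjusted p up to 0.0679).

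Among core binding factor genes and their corepressors, 23 were tested, 7 rose (30.4%, against 19.5% of all tested genes) and 2 fell (8.70%, against 6.66%). With quantile normalization or without Cbfb-/- array 1, 4 rose. The falls were both in the ETO family of corepressors. Runx1t1, known as ETO from its fusion with RUNX1 in leukaemia, was at log2 levels of 6.28, 6.13 and 6.56 in Cbfb-/- and 7.94, 7.89 and 7.84 in Cbfb+/+, a fall of 2.96-fold (95% interval 2.43 to 3.60, adjusted p = 2.62e-05), and no wild-type array was below 7.84. Cbfa2t3, the ETO protein of erythroid complexes with Tal1, fell by 0.80 (adjusted p = 0.00218), though its 3 probe sets ranged from -0.80 to -0.32 and their mean of -0.39 was under the fold floor. The histone deacetylase genes Hdac2 (1.38) and Hdac1 (0.76) rose, the latter not with quantile normalization (0.53). Runx3 (-0.28) was not called. Of 19 tested genes reported as bound or regulated by Runx1, 12 fell and 2 rose, with a median of -0.78, and 0 rose without Cbfb-/- array 1 or Cbfb+/+ array 1 or 3. The falls were 63.2%, against 6.66% of all tested genes. Through Cbfb+/+ alone 2 of the 19 passed the filter, and without them 10 fell. Through Cbfb+/MYH11 alone 3 passed, and over all 27 measured genes the median was -0.58. Several of the 19, such as Csf1r, Itga2b and Mpo, are counted in the lists above.

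Red cell genes were lower in part, and the brightest of them hardly differed, at levels where probe sets may be saturated or compressed. Of 27 tested erythroid transcription factor genes 10 fell and 1 rose (37.0% and 3.70%), with a median log2 difference of -0.53, or -0.66 relative to all genes. E2f2, which drives the last cell cycles of erythroblasts, was at 7.67, 7.80 and 7.54 in Cbfb-/- and 8.94, 8.89 and 9.01 in Cbfb+/+ and fell by 2.43-fold (adjusted p = 0.000117). The repressor Gfi1b fell by 0.91, the stem and erythroid factor Lyl1 by 0.84, the small Maf partner Mafg by 0.82 and Foxo3 by 1.10, although the 3 probe sets of Foxo3 ran from -1.10 to 0.02. Differences of the main activators of the lineage were smaller. Klf1 was at 11.05, 10.99 and 11.02 against 11.31, 11.22 and 11.26 (-0.24, adjusted p = 0.124). Gata1 was at 9.79, 9.86 and 9.85 against 10.28, 10.26 and 10.25 (-0.43, 95% interval -0.66 to -0.20), under the floor here but called with quantile normalization (-0.62). With that scaling 18 of the 27 were called lower, so the number depends on it while the direction of the median did not.

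The same held for genes of later steps. In the late maturation list, which covers autophagy, ubiquitin and export genes of maturing red cells, 10 of 25 fell and 0 rose. The falls were 40%, against 6.66% of all tested genes. Of the 25, 20 were below all 7 wild-type arrays, against 13.9% of all tested genes. With quantile normalization 16 fell. Rnf11, a ubiquitin ligase adaptor, fell by 1.16, the autophagy kinase Ulk1 by 0.72 and the Fbox gene Fbxo30 by 0.78. The mean of the Ulk1 probe sets gave -0.51, under the floor. Bpgm, which makes the oxygen affinity regulator of haemoglobin, was not called (-0.15). In the membrane and surface list 7 of 24 fell and 0 rose, or 14 with quantile normalization. The scaffold protein Mpp1 was at log2 levels of 8.08, 7.90 and 8.14 against 9.58, 9.58 and 9.63 (2.94-fold lower, adjusted p = 3.97e-05). Slc2a1, the glucose transporter of red cells, fell by 0.82, Ermap by 0.85 and ankyrin, Ank1, by 0.84, although averaging the Ank1 probe sets gave -0.33, under the floor. The anion exchanger Slc4a1 (-0.18) and the Kell antigen gene Kel (-0.32) were not called.

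Some heme and iron genes fell too, in numbers that depended on scaling. Among 12 genes of heme synthesis the count of falls was 2, against 4 under quantile normalization and 5 under centring. Tspo2, a membrane protein of erythroid cells, was at log2 levels of 7.05, 7.29 and 7.29 in Cbfb-/- and 9.45, 9.33 and 9.38 in Cbfb+/+, a fall of 4.52-fold (95% interval 3.18 to 6.44, adjusted p = 9.36e-05). The gene of the mitochondrial glycine carrier, Slc25a38, fell by 0.77. Alas2, the first enzyme of the erythroid pathway, was not called at -0.14, nor was Urod at -0.13. Of 17 iron genes 3 fell, or 7 with either scaling (of 16 tested with quantile normalization). The 3 were the heme exporter Flvcr1 (by 0.72), the heme transporter Slc48a1 (by 0.73) and heme oxygenase Hmox1 (by 0.63). Of 18 antioxidant enzymes 1 rose, Txnrd1, and 0 fell, while with quantile normalization or centring 0 rose and 5 fell. The adult globin Hbb-b2 was at 10.80, 10.61 and 10.80 against 11.26, 11.58 and 11.61 and fell by 0.74, but at -0.41 it was under the floor with the mean of its probe sets.

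Transcripts of neural progenitors were among the largest rises. Of 39 listed genes 37 had a probe set and 24 were tested. Of these, 21 rose and 0 fell (87.5%, against 19.5% of all tested genes). However, 12 of the 24 passed the filter through the Cbfb-/- arrays alone, which favoured a higher level there. Leaving out these 12 and 1 gene that passed through Cbfb+/+ alone, 9 of 11 rose. The median log2 difference over all 37 measured genes, with no filter, was 1.20, and that over the 24 was 2.18. The median log2 level of the 37 measured genes was 6.24 to 6.51 on the Cbfb-/- arrays, 4.90 to 5.06 on the Cbfb+/+ arrays and 4.59 to 5.44 on the WT arrays. The arrays of Cbfb-/- were above all 7 wild-type arrays for 19 of the 24, against 27.4% of all tested genes. That count includes genes among the 12 whose direction the filter favoured, and it was not made without them.

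The rises differed in whether wild-type blood could reach them. Dmrta2, a factor of the dorsal forebrain, was at log2 levels of 8.24, 8.06 and 8.35 in Cbfb-/- and 3.76, 4.27 and 4.01 in Cbfb+/+ (at least 18.4-fold, 95% interval 11.6 to 29.3, adjusted p = 9.37e-06), and all 4 WT arrays were between 3.72 and 3.87. Lhx2, a homeodomain factor of forebrain and eye, was at 9.59, 9.35 and 9.34 against 5.80, 5.41 and 5.51. Sox3, a factor that keeps neural progenitors undifferentiated, was at 7.12, 7.42 and 7.25 against 4.23, 3.92 and 3.92, with WT arrays at 3.86 to 4.31, and had the smallest adjusted p of all genes (3.01e-08). Dmrta2, Lhx2, Sox3, Zic1 and Nr2f1 were tested because of the Cbfb-/- arrays alone, so a higher level there was favoured by the filter. Dmrta2, Lhx2 and Sox3 were under 6 on all 7 wild-type arrays and over 7 on the Cbfb-/- arrays.

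Tubb2b, a neuronal tubulin with the largest rise of all, was also high on some wild-type arrays. It was at 8.42, 8.27 and 8.33 in Cbfb-/- and 3.83, 3.69 and 3.66 in Cbfb+/+, but WT arrays 3 and 4 had 7.15 and 7.11 where arrays 1 and 2 had 3.06 and 3.98. Zic1, a factor of the dorsal neural tube, was at 7.73, 7.13 and 7.41 against 3.60, 2.62 and 2.31, and at 5.80 and 5.64 on WT arrays 3 and 4. The neuronal protein genes Dpysl3 (6.82 and 6.64 on those WT arrays, against a Cbfb-/- mean of 6.90) and Cpe (7.90 and 7.73, against 7.78) overlapped Cbfb-/- there. Cpe was also read with the opposite sign by another probe set (-1.79), and its call reversed with quantile normalization (-1.93). Nnat, an imprinted gene of brain, rose by 3.41 (adjusted p = 0.018), Fabp7, a lipid carrier of radial glia, by 3.98 (adjusted p = 0.000176), Nr2f1 by 3.30 and Sox2 by 3.61 (adjusted p = 0.00368). The kinase gene Sbk1 was called as well, but lost its call without any single array (adjusted p up to 0.0829).

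Genes of differentiated neurons were fewer. Of 47 measured, 15 were tested and 9 rose, 7 of the 15 having passed through Cbfb-/- alone, and the median over all 47 was 0.64. Besides Tubb2b and Dpysl3, Fez1 (3.43), Uchl1 (1.89) and Nsg2 (1.24) rose, and the axonal microtubule protein gene Map1b rose by 1.68, though not without Cbfb+/+ array 1 (adjusted p = 0.0539). Fez1, Uchl1, Nsg2 and Map1b are among those that passed through Cbfb-/- alone, and without such genes 4 rose. Of 37 measured regional factors of forebrain and midbrain, 4 were tested, and Dmrta2, Lhx2 and Emx1 (0.69) rose while Wnt7b (0.14) was not called. All 3 rises passed the filter through Cbfb-/- alone, which favoured their direction, and the median over the 37 was 0.01. The Emx1 call was lost with quantile normalization (0.56) and without Cbfb-/- array 1 or Cbfb+/+ array 1 or 3 (adjusted p up to 0.0855). Of 33 measured Hox genes, which mark the hindbrain, spinal cord and trunk, 8 were tested and 1 rose, Hoxb13 (0.90), with a median of 0.01 over the 33. Hoxb13 passed through Cbfb-/- alone, and without it 0 rose. In the neural crest and glia list Ednrb fell by 1.49, a call that ended without any single array (adjusted p up to 0.0919).

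Other tissues moved less uniformly. Of 28 tested mesenchyme and matrix genes 12 rose and 0 fell, 6 of the 28 having passed through Cbfb-/- alone. Leaving out these and 1 gene that passed through Cbfb+/+ alone, 6 rose, and with the 6 arrays fitted alone 19 of the 28 rose. The cartilage collagen gene Col2a1 was at log2 levels of 8.33, 8.15 and 8.23 in Cbfb-/- and 6.04, 5.87 and 6.15 in Cbfb+/+ (4.66-fold, 95% interval 3.57 to 6.08, adjusted p = 1.83e-05), above every WT array. The mesoderm factors Foxc1 (2.40), Meox1 (1.78), Foxc2 (1.59) and Twist1 (1.12), all of which passed through Cbfb-/- alone, rose, while the matrix protein gene Sparc (0.54) was not called. WT arrays 3 and 4 had a median log2 level of 6.60 and 6.58 over the 38 measured genes, within the 6.48 to 6.79 of Cbfb-/-, against 5.67 to 5.88 in Cbfb+/+. In the muscle list 2 of 15 rose and 1 fell, or 5 and 1 with the 6 arrays alone and 1 and 3 with quantile normalization. The cardiac actin gene Actc1 rose by 3.01 (adjusted p = 0.00749), but WT arrays 3 and 4, at 9.83 and 9.79, exceeded all Cbfb-/- arrays (8.29 to 8.49).

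Liver and visceral endoderm genes showed 5 rises and 0 falls among 12 tested, with 3 rises when any single array was left out and a median of 0.18 over the 30 measured. Through Cbfb-/- alone 3 of the 12 passed the filter, among them Cubn and Rbp4, and without those 3 genes 3 rose. With the 6 arrays alone 7 rose and 1 fell. Rbp4, the retinol carrier, rose by 1.95 (adjusted p = 0.0015), the endocytic receptor gene Cubn by 2.76 (adjusted p = 0.00779) and Apoa2 by 1.51 (adjusted p = 0.0151). The transthyretin gene Ttr rose by 2.35 and Apoa1 by 1.58, but both calls ended without any single array (adjusted p up to 0.0661 and 0.0937). Afp was at 11.56, 11.48 and 11.59 against 10.42 on all Cbfb+/+ arrays, and was not called (1.13, adjusted p = 0.525), since WT arrays ran from 6.20 to 11.97. Of 7 endothelial genes Aplnr (2.60) and Ramp2 (1.23) rose, Aplnr at 7.41 and 7.40 on WT arrays 3 and 4. The Aplnr call ended without Cbfb+/+ array 3 (adjusted p = 0.0514), and that of Ramp2 without any single array but Cbfb-/- array 2 (up to 0.0793). Of 7 epithelial genes and 1 trophoblast gene 0 were called. The part of RNA from other embryonic tissues in these differences was not tested.

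**Figure D3:**
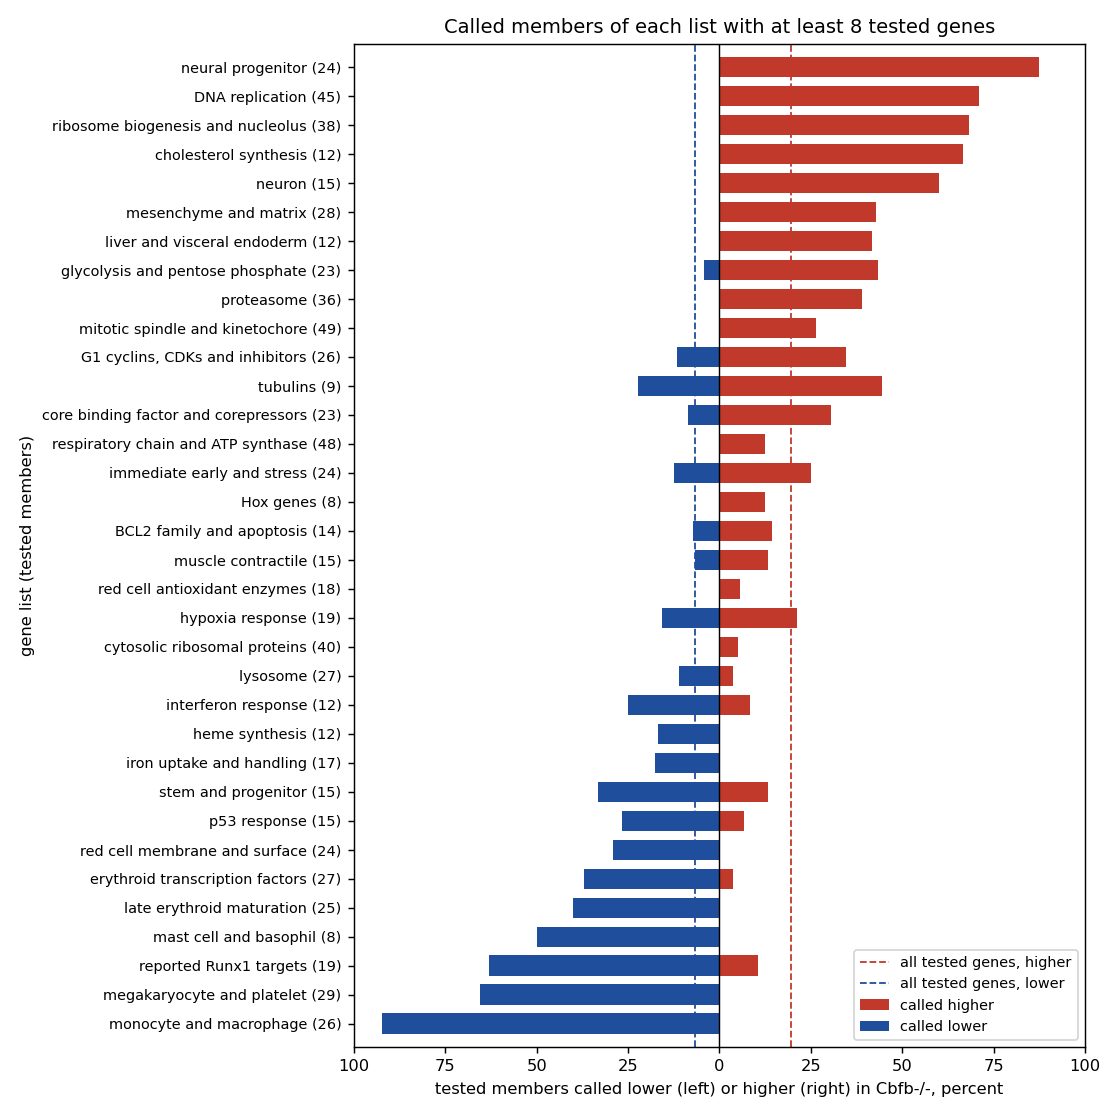
Percent of the tested members of each list that were called lower (left) or higher (right) in Cbfb-/-; the number tested follows each name, and dashed lines mark the 6.66% and 19.5% of all tested genes. Macrophage, platelet and red cell lists other than the antioxidant enzymes extend to the left, and neural progenitor, DNA replication, ribosome biogenesis and cholesterol lists to the right.

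Genes of DNA replication rose together. Of 45 tested, 32 rose and 0 fell (71.1%, against 19.5%), with a median log2 difference of 1.00, or 0.87 relative to all genes. None of the 45 passed the filter through Cbfb-/- alone. With quantile normalization 29 rose and 1 fell, and 22 to 29 rose when single arrays were left out. Uhrf1, which carries DNA methylation through replication, was at log2 levels of 8.15, 8.20 and 8.25 in Cbfb-/- and 6.81, 6.64 and 6.78 in Cbfb+/+ (2.74-fold, adjusted p = 0.00255), and at 5.86, 5.81, 7.12 and 6.88 on the WT arrays. Cdc45, part of the replicative helicase, was at 6.75, 6.52 and 6.66 against 5.88, 5.49 and 5.39 and rose by 1.05, but only by 0.51 with the mean of its probe sets. The polymerase gene Pole rose by 1.36, the licensing inhibitor Gmnn by 1.28 and the origin protein Orc2 by 0.88. The mean of the Orc2 probe sets gave 0.51, under the floor. Mcm2 (0.58) and the flap nuclease Fen1 (0.08) were not called. For 34 of the 45 all Cbfb-/- arrays were above the 7 wild-type arrays, against 27.4% of all tested genes. Wild-type levels themselves differed, with median log2 levels over the 45 of 6.56 to 6.63 in Cbfb+/+ and 6.11 to 7.12 in WT, against 7.35 to 7.58 in Cbfb-/-.

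Of 49 tested mitotic genes, 13 rose and 0 fell (26.5%, against 19.5% of all tested genes). The count depended on the fit. With the 6 arrays alone 29 rose, with quantile normalization 6 rose and 1 fell, and without single arrays 8 to 10 rose. The kinetochore gene Cenpk rose by 1.27, the checkpoint kinase Ttk by 1.28 and Tpx2 by 0.83, while the proliferation marker Mki67 (0.43) and Ube2c (0.12) were not called. In the G1 list 9 of 26 rose and 3 fell, or 7 and 5 with quantile normalization, and 5 to 7 rose without single arrays. Cdk4, the kinase of D-type cyclins, was at log2 levels of 9.58, 9.51 and 9.55 in Cbfb-/- and 7.68, 7.46 and 7.80 in Cbfb+/+ (3.73-fold, 95% interval 1.75 to 7.96, adjusted p = 0.011), with WT arrays from 6.56 to 8.84. Cdc25a (1.23) and Ccne2 (1.16) rose, and the retinoblastoma gene Rb1 fell by 0.67. Ccnd3, the cyclin of erythroid cells, was not called (-0.27).

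**Figure D4:**
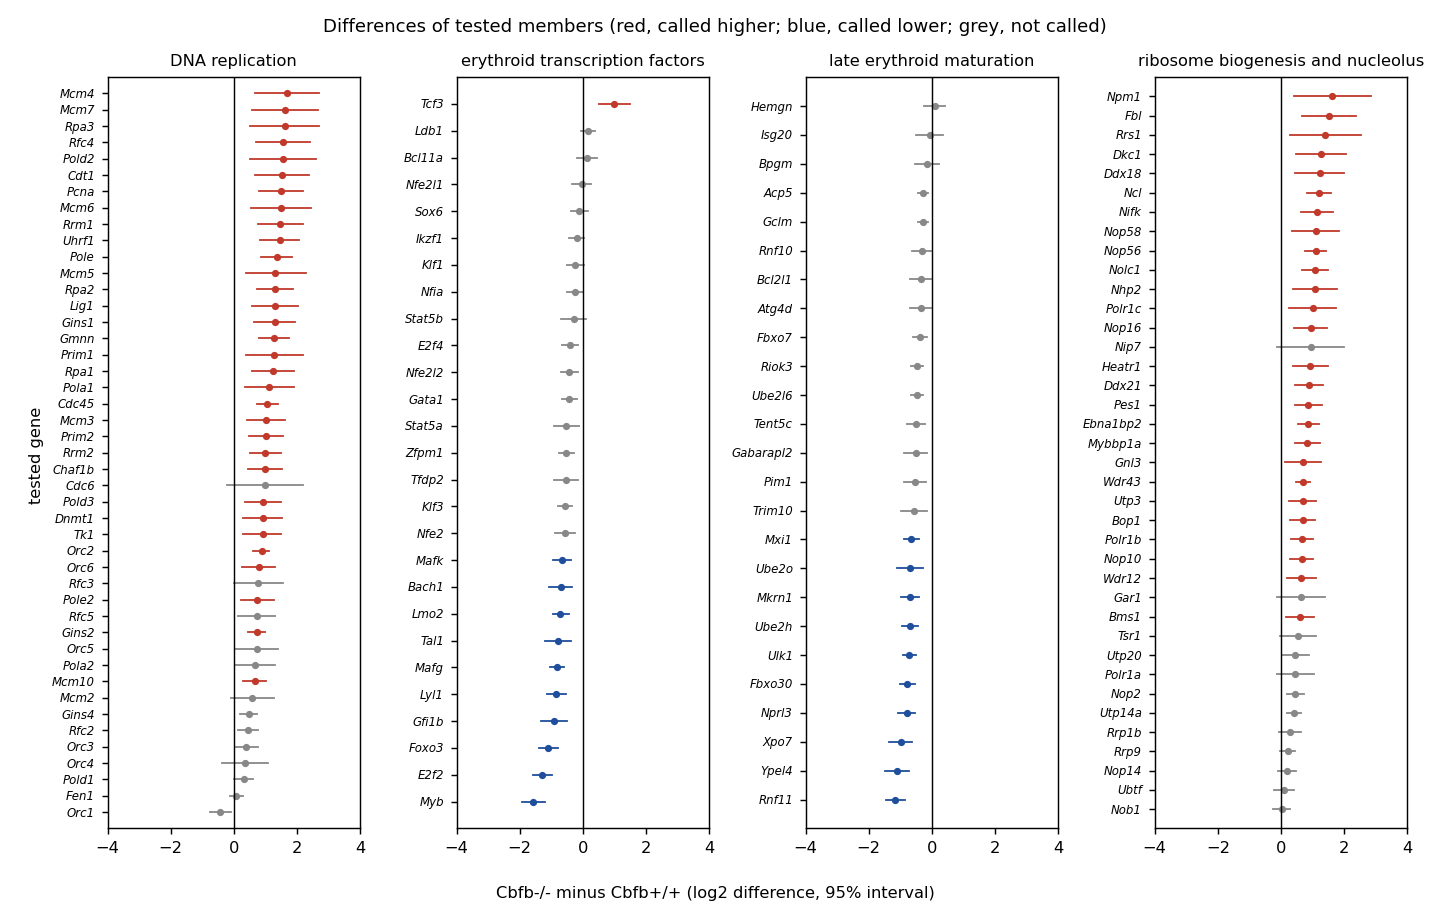
Log2 difference of Cbfb-/- from Cbfb+/+ with its 95% interval for every tested gene of 4 lists, sorted by size. The 32 called replication genes and 26 called ribosome biogenesis genes lie above 0, and 10 genes of each erythroid list below it, while most intervals of the erythroid genes that were not called also lie near or below 0.

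Of 38 ribosome biogenesis and nucleolar genes 26 rose and 0 fell (68.4%, against 19.5% of all tested genes), with a median of 0.77. With quantile normalization 16 rose, and 17 to 21 without single arrays. Nucleolin, Ncl, was at log2 levels of 10.67, 10.50 and 10.60 against 9.38, 9.41 and 9.35 (2.31-fold, adjusted p = 0.000477), above all WT arrays (8.92 to 9.68). The small nucleolar ribonucleoprotein gene Nop56 rose by 1.10 and Nolc1 by 1.08, while Ubtf (0.09) was not called. Of the genes of the ribosomal proteins themselves 2 of 40 were called higher (5.00%, a share below that of all genes), among them Rps18 (0.71) but not Rplp0 (0.12). The Rps18 call was lost with centring (0.50) and with the mean of probe sets (0.24). Of 36 proteasome genes 14 rose, but 2 with quantile normalization and 8 without Cbfb-/- array 1 or Cbfb+/+ array 3. Of 48 respiratory chain genes 6 rose (also below the share of all genes), or 2 with quantile normalization.

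Of 12 cholesterol synthesis genes 8 rose and 0 fell, or 6 with quantile normalization and 3 of 8 with the mean of probe sets. Sqle, an early oxidation step of the pathway, was at 7.71, 7.68 and 7.56 against 5.78, 5.80 and 5.94 (3.50-fold, adjusted p = 0.00247), with WT arrays 3 and 4 at 7.19 and 7.17. Idi1 (1.43), Fdps (1.05) and Nsdhl (0.79) rose, while their regulator Srebf2 (0.10) was not called. Of 23 glycolysis and pentose phosphate genes 10 rose and 1, the transporter Slc2a1, fell. Aldoc, the aldolase of brain, was at 7.87, 7.13 and 7.78 against 4.97, 5.37 and 5.02 (5.55-fold, 95% interval 3.87 to 7.96, adjusted p = 4.24e-05), while the aldolase of red cells and muscle, Aldoa, was not called (0.33). Pkm rose by 1.74, Pgk1 by 1.58 and Pfkl by 1.48.

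Lists of responses to stress and signals held both rises and falls. Against 19.5% of all tested genes, the share called higher was 21.1% for hypoxia, 25% for immediate early and stress, and 44.4% for tubulin genes. It was lower in the p53 (6.67%), interferon (8.33%), lysosomal (3.7%) and BCL2 (14.3%) lists. The share called lower ran from 7.14% (BCL2) to 26.7% (p53), against 6.66% of all tested genes. Of 15 p53 response genes 4 fell, among them Sesn1 (by 1.00) and Gadd45a (by 0.93), and 1 rose, Ddit4 (2.45, adjusted p = 0.0116). With quantile normalization 6 fell and with centring 7, 2 fell without Cbfb+/+ array 1, and 3 rose without Cbfb+/+ array 2. Of 19 hypoxia genes 4 rose and 3 fell, or 1 and 2 of 12 with the mean of probe sets. Of 12 interferon genes 3 fell and 1 rose, or 5 and 0 with quantile normalization. Without the 2 that passed the filter through Cbfb+/+ alone, 2 fell and 1 rose. Rsad2 fell by 1.13 and Ifitm3 by 1.12, both lost without Cbfb-/- array 2 (adjusted p = 0.0542 for each), and the rise of Ifitm2 (0.87) was lost without any single array (adjusted p up to 0.109). Of 24 immediate early and stress genes 6 rose (3 with quantile normalization, and 3 without Cbfb-/- array 1 or Cbfb+/+ array 3), such as Jun (1.01), and 3 fell, such as Klf6 (by 1.08). Of 9 tubulin genes 4 rose and 2 fell, or 3 and 3 with quantile normalization, and 1 or 2 rose without any single array. Of 27 lysosomal genes 3 fell and 1 rose, or 8 and 1 with that scaling. Without the lysosomal genes that passed the filter through Cbfb-/- or Cbfb+/+ alone, 3 fell and 0 rose. Of 14 genes of the BCL2 family and apoptosis 2 rose and 1 fell, with 1 rise without any single array.

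The effect of losing Cbfb was set against that of Cbfb+/MYH11, each with its own littermates, by testing the difference of the 2 effects. Of 7392 genes 1548 (20.9%) differed, 449 being higher and 1099 lower in the Cbfb-/- effect. That count takes arrays as replicates, and a difference between pools cannot be told apart from one between the mutants. Of the 1935 genes called in Cbfb-/-, 914 were called with the same sign in Cbfb+/MYH11 (770 higher, 144 lower) and 95 with the opposite sign, and for 1396 the effects were not called different. The platelet receptor Gp1bb fell in both, with -3.13 and -3.06 (difference -0.06, adjusted p = 0.956), and Mpo had -2.15 and -2.08. Tubb1 fell by 2.62 in Cbfb-/- and was at 0.46 in Cbfb+/MYH11, a difference of -3.08 (adjusted p = 2.29e-05). Csf1r was at -2.39 and 0.23 (difference -2.62, adjusted p = 0.0124) and Fermt3 at -2.10 and 1.05.

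Several lists held genes whose effects differed, against 449 higher and 1099 lower of all 7392 tested genes. All 8 tested mast cell and basophil genes were lower in the Cbfb-/- effect, of which 6 had passed the filter only through Cbfb+/MYH11. Cd200r3 was at -0.16 in Cbfb-/- and 6.05 in Cbfb+/MYH11, and Csf2rb2, a chain of the interleukin 3 receptor, at -0.14 and 5.59. Of 27 erythroid transcription factor genes 15 were lower in the Cbfb-/- effect and 0 higher. Lmo2 was at -0.71 and 1.63, Myb at -1.57 and 1.35, Gata1 at -0.43 and 0.77 and Klf1 at -0.24 and 0.86. Rac2, a GTPase of blood cells, was at -1.78 and 2.70. In the other direction, 12 of 24 neural progenitor genes, 11 of 28 mesenchyme genes and 6 of 12 liver and endoderm genes were higher in the Cbfb-/- effect. Through Cbfb-/- alone 12, 6 and 3 of the tested genes of these lists passed the filter, which favours a higher Cbfb-/- effect there. Sox3, which passed through Cbfb-/- alone, was at 3.24 and -0.24 (difference 3.48, adjusted p = 6.69e-08), a direction that the filter favoured. For DNA replication the effects differed in 2 of 45 genes, 41 of which rose in Cbfb+/MYH11, and for the mitotic list 12 of 49 were lower in the Cbfb-/- effect.

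**Figure D5:**
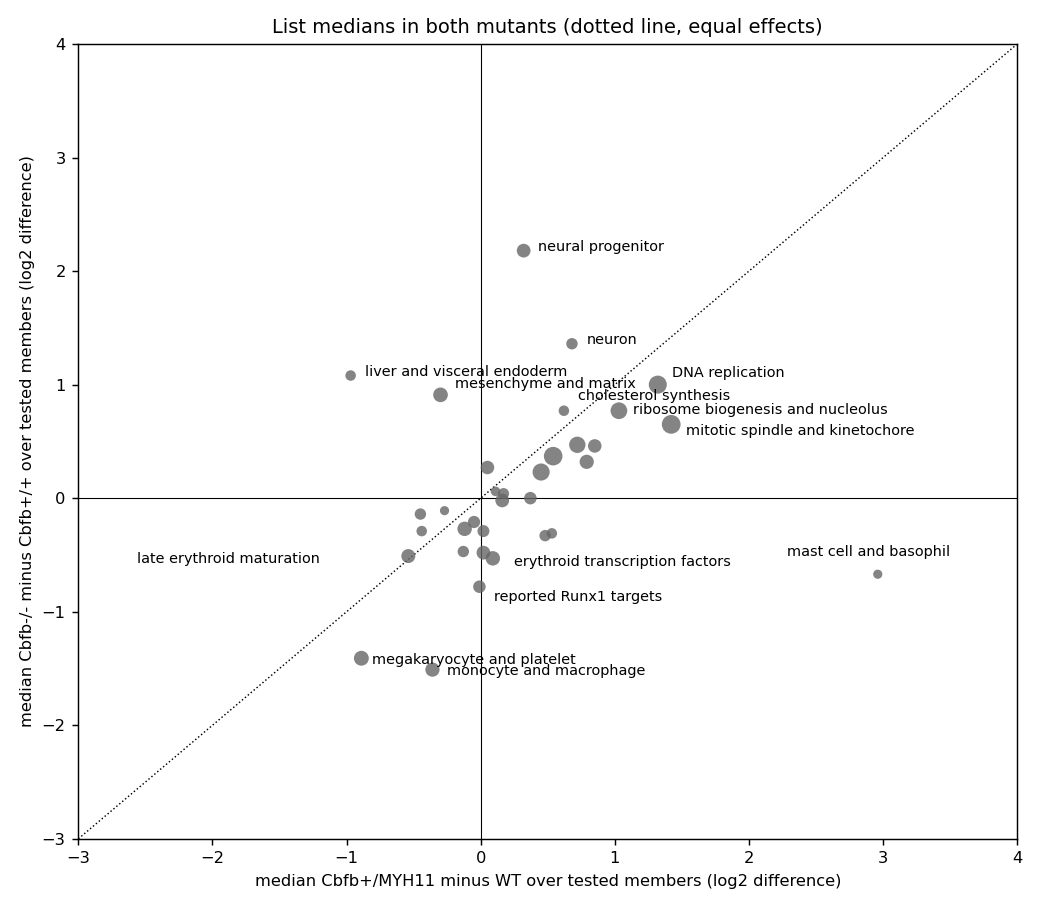
Median log2 difference over the tested members of each list of at least 8 genes in Cbfb+/MYH11 against WT (horizontal) and in Cbfb-/- against Cbfb+/+ (vertical); dots grow with the number of genes and the dotted line marks equal effects. Platelet genes are low in both, replication genes high in both, and neural progenitor and mast cell genes lie far from the line on opposite sides. The filter favours those sides, since 12 of 24 neural progenitor genes passed it through Cbfb-/- alone and 6 of 8 mast cell genes through Cbfb+/MYH11 alone. Over all measured genes the medians of Cbfb-/- against Cbfb+/+ were 1.20 and -0.33, against 2.18 and -0.67 as drawn.

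All of these calls rest on the spread between arrays. With the arrays averaged to 6 putative pools, 1 for each genotype here and 2 for each in the other cross, limma called 0 genes. An unadjusted p below 0.05 was reached by 336, and the smallest adjusted p was 0.654. In that fit each of the 2 pools of this cross was assumed to vary like those of the other. No such count is given for the difference of effects.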

How the data were processed

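Total RNA of pooled embryonic blood was labelled with biotin and hybridised to Affymetrix arrays. Per the submitters' processing notes, the authors made the deposited log2 values with RMA in Affymetrix Expression Console, whose versions are not given. RMA corrects background, scales the arrays to each other and summarises probes, so it can compress high levels. The 45101 probe sets on 14 arrays were used as deposited. Of them 34945 carried 1 gene symbol in the platform table, 932 several and 9160 none here. Each of 18193 genes took its brightest probe set, and 7392 with a log2 level of at least 6 on at least 3 arrays were tested.

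The 4 groups, named from the labels, were fitted in 1 model with limma 3.58.1 (lmFit, eBayes) in R 4.3.3, with 10 residual and 2.82 prior degrees of freedom. Adjusted p-values are Benjamini-Hochberg over all tested genes. The test was checked on simulated data. The alternatives were another scaling, filter, fold floor, probe set rule, block or set of arrays, and pools. Promoter windows came from RefSeq (GRCm38.p6), and 6053 tested genes had one.

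The comparison, the 44 gene lists (1310 genes, 1164 with a probe set) and the rules were chosen with earlier results of these data known. Named genes are the 15 largest rises and falls, the 6 largest differences between mutants in each direction, up to 6 called and 3 not called members of each list, all members of lists with 5 or fewer tested, fixed genes and the promoter genes. Arrays with the same number did not deviate together (correlations 0.034, 0.011 and 0.017), so numbers do not pair them.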

Additional observations from a re-analysis of the deposited data

Results flagged for a closer look

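The effect of losing Cbfb differed from that of Cbfb+/MYH11, by the test of the difference itself, for 1548 genes. This number takes arrays as replicates and is not given for putative pools. The largest differences (Cbfb-/- effect minus Cbfb+/MYH11 effect, log2) were those of Cd200r3 (-6.21), Csf2rb2 (-5.72), Ms4a2 (-5.38), Fam221a (-4.72), Npl (-4.48) and Rac2 (-4.48) on the lower side. On the higher side they were Cubn (4.49), Dmrta2 (3.79), Sox3 (3.48), Prap1 (3.44), Rbp4 (3.26) and Actc1 (3.11). Of these, Cubn, Dmrta2, Sox3 and Rbp4 passed the filter through Cbfb-/- alone, which favoured that direction. For Prap1 the Cbfb-/- difference alone was 0.83 and not called, and its WT arrays were at 9.54, 9.61, 6.31 and 6.12.

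Probe sets outside the named genes also carried signal. Of 718 tested probe sets with no symbol here, 168 (23.4%) were called, 107 higher and 61 lower in Cbfb-/-. Of 407 tested probe sets with several symbols, 99 (24.3%) were called, 85 higher and 14 lower. Both shares are near the 26.2% of named genes.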

How the results depend on the processing

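The number of called genes was 1935, and between 1551 and 1698 when single arrays were left out. With the 2-fold floor it was 787 (653 higher, 134 lower). The arrays averaged to putative pools, an alternative chosen after seeing the data, as were the list counts without members that passed the filter through 1 group, gave 0 (0 higher, 0 lower). Quantile normalization and centring moved the lower calls from 492 to 917 and 989, and the mean of probe sets gave 924 higher. Of the calls, 1479 were shared with quantile normalization and 1468 with centring. The difference of effects was called for 1031 genes with the filter at 7 and 762 with the 2-fold floor. A replicate block gave 2127 called genes, 1924 of them shared, though the numbers do not pair the arrays. Cpe reversed with quantile normalization (-1.93) and Prdx2 with the mean of probe sets (-1.23), where another probe set stands for or enters the gene. Of 176 called named genes 26 lost their call with quantile normalization, 26 with centring, 23 of 143 with the mean of probe sets, 15 to 22 without single arrays and 1 with the replicate block. For the counts of higher and of lower calls, and for the difference of effects, the other settings stayed within 1.5 times. Levels under 6 are near background and limit what the falls of platelet and macrophage genes and the rises of neural genes can show of size.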
